A study of Homo sapiens with 9 samples.

Results

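The comparison described here sets 3 libraries of cells exposed to the compound BSGL against 3 libraries of cells exposed to the solvent alone. BSGL was given at 10 µM for 24 h, and the control cells received 0.1% DMSO for 24 h. Its members are the genes that reached 1 FPKM (a fragment count corrected for gene length and library size) in at least 3 of these 6 libraries and that the deposited table places on a chromosome or on the mitochondrial genome. They number 12114 of the 45754 genes in the table, and the 6 libraries are part of 9. Of the 12114, 11337 reached that level in all 6 libraries and 236 in exactly 3, while 308 genes that reached it in 2 lay just outside. The other 3 libraries are of cells given the compound RSGL, also at 10 µM for 24 h, and serve here for the spread between libraries and for a comparison of both compounds at the same dose and time. The cells are labelled H441, a line from a human lung adenocarcinoma, and were grown in RPMI medium with 10% serum. A genotype tag disagrees with that label, since it gives H460 in the 6 compared libraries and A549 in the 3 with RSGL. The labels do not state that replicates were separate cultures; a p-value here thus reflects only how these libraries vary, which may be technical. The labels give BSGL and RSGL as code names, and no structure is given for either.

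Several of the genes described below belong to lipid supply. Cells make fatty acids and cholesterol under the control of the SREBP transcription factors, which are held in the endoplasmic reticulum by INSIG proteins when sterols are plentiful and which otherwise move to the nucleus and raise the genes of lipid synthesis, and INSIG1 with them. Fatty acids that arrive from outside or leave lipid droplets are ligands of the PPAR receptors, which raise genes of fatty acid import into mitochondria, of oxidation and of droplet storage. In lung cancer lines with a mutant KEAP1, the transcription factor NRF2 is constantly active and its targets, such as aldo-keto reductases, aldehyde dehydrogenases and glutathione enzymes, are very abundant.

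The control libraries held 17749838 to 18193216 fragments in genes and the BSGL libraries 17490833 to 18738947, and 12011 to 12104 genes reached 1 FPKM in a library. Taken alone, the 6 libraries did not fall into their groups on the first principal component of all genes. In a principal component analysis, the first component (27.9% of the variance) set control 3, at -6.73, and BSGL 1, at -9.87, on the side away from control 1 and control 2, at 9.74 and 9.89. BSGL 2 and BSGL 3 lay between them, at -3.56 and 0.53. With all 9 libraries, control and BSGL did not overlap on the first component (68.2% of the variance). The controls stood at 15.4 to 15.8 and the BSGL libraries at 13.4 to 14, with the RSGL libraries at the other end, at -29.4 to -29.2. By the chi-square per degree of freedom of their fragments over genes, where 1 is sampling noise, control 3 was nearer to BSGL 1 (2.80) than to control 1 (4.63) or control 2 (5.4), and no pair of libraries fell to sampling noise. Several gene sets were highest in control 3 or BSGL 1. Relative to the control mean, the median log2 value of ribosomal protein genes was -0.05, -0.07 and 0.13 in the controls and 0.11, 0.029 and 0.062 with BSGL. That of 5 metallothionein-related genes was 0.061, -0.26 and 0.28 and then 0.37, 0.024 and -0.018. Relative instead to the mean of the 6 libraries, the median of small nucleolar RNA genes was 0.058 in control 3 and 0.16 in BSGL 1. Which genes account for the grouping, and whether it affects other results was not tested, and each count of calls is therefore given below with libraries left out.

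**Figure D1:**
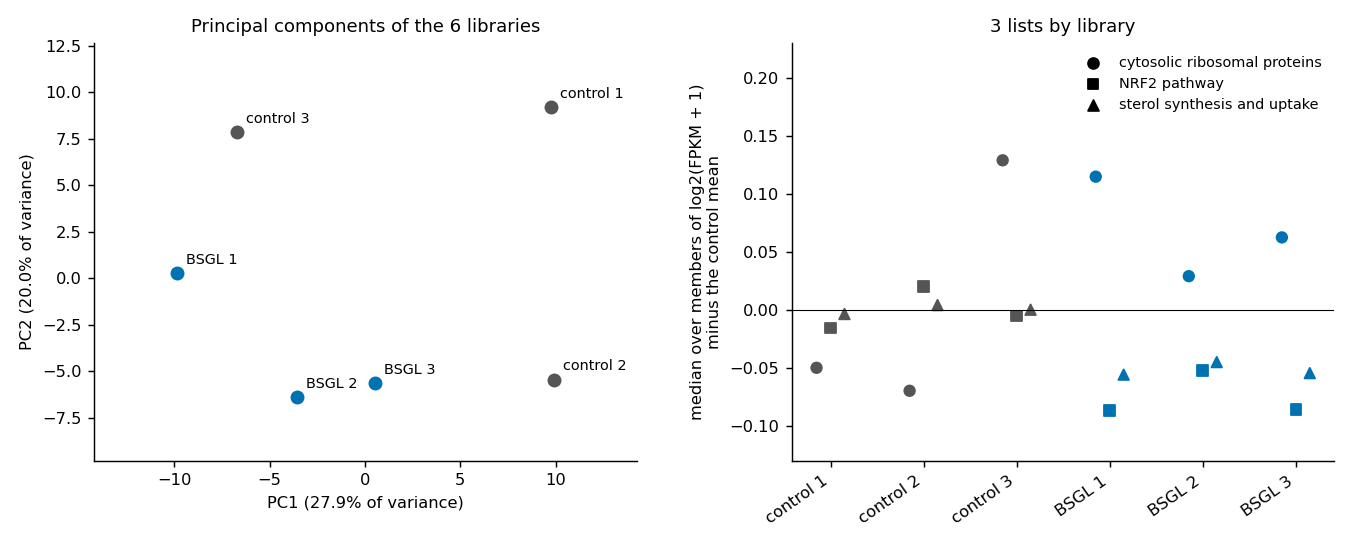
Left, the 6 libraries on the first and second principal components of log2(FPKM + 1), in arbitrary units. Right, for each library on the x axis, the median over the members of 3 gene lists of log2(FPKM + 1) minus the control mean. Control 3 and BSGL 1 lie together on the left, where ribosomal protein genes stand at 0.13 and 0.11, while the NRF2 and sterol lists are lower in each of the 3 BSGL libraries than in each control.

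Marker genes were read beside the labelled cell type, and which of the labelled lines was used was not tested. Of 14 genes of the lung lineage, 2 passed the filter, the transcription factor FOXA2 and the lipid transporter ABCA3. NKX2-1, the defining factor of that lineage, stayed at 0.06 FPKM or lower in each of the 6 libraries. The surfactant protein genes SFTPA1 and SFTPB stayed at 0.0441 and 0.039 FPKM or lower, and SFTPC at 0.398 or lower. Of 12 genes that are high in lines with mutant KEAP1, 11 passed, and their summed level was 4286 to 4395 FPKM in the controls and 3999 to 4082 with BSGL, without overlap. Keratins were abundant, with 5 of 6 epithelial markers passing, but EPCAM did not pass. Endothelial and T cell markers were close to absent, with 0 of 7 and 0 of 7 passing. Fibroblast markers passed in 4 of 9 (COL1A1, LUM, THY1 and ACTA2), with a sum of 12.3 to 13.5 FPKM in the controls and 12.01 to 13.3 with BSGL, neuroendocrine markers in 2 of 8 and basal markers in 1 of 7 (SOX2). Among macrophage markers 2 of 8 passed, and their sum, nearly all of it CD68, which sits in lysosomes of many cell types, was 42.2 to 42.7 FPKM in the controls and 46.7 to 47.8 with BSGL. CD68 itself had an adjusted p of 0.0909 by limma and was not called.

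BSGL left almost all genes near their control level. Of the 12114 genes, 11 were called by limma with Benjamini-Hochberg adjustment over all genes at an adjusted p under 0.05, which is 0.0908%. The genes that rose were 6 (0.0495%): ANGPTL4, CPA4, G0S2, SFRP1, IL11 and CPT1A. The genes that fell were 5 (0.0413%): INSIG1, SCD, FADS2, CYP1B1 and AKR1C2. All 11 are protein-coding, their mean FPKM moved by 16.9 to 61.6%, with an adjusted p of 0.02 for 10 of them and of 0.0312 for CPT1A. An unadjusted limma p under 0.05 was reached by 827 of the 12114 genes, 427 higher and 400 lower. In all 11 the values of the 3 BSGL libraries lay wholly above or below those of the 3 controls, as they did in 12.9% of all genes. The log2 differences had a median of 0.0055 over all genes, 80% were within 0.1 of 0 and 96.3% within 0.25. Of all genes, 53.4% had a higher mean with BSGL. Most intervals were narrow: the 95% interval of the difference lay wholly within 0.25 of 0 for 74.1% of genes and within 0.5 for 93%, while it reached beyond a 2-fold change (log2 of 1) in 332 genes.

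**Figure D2:**
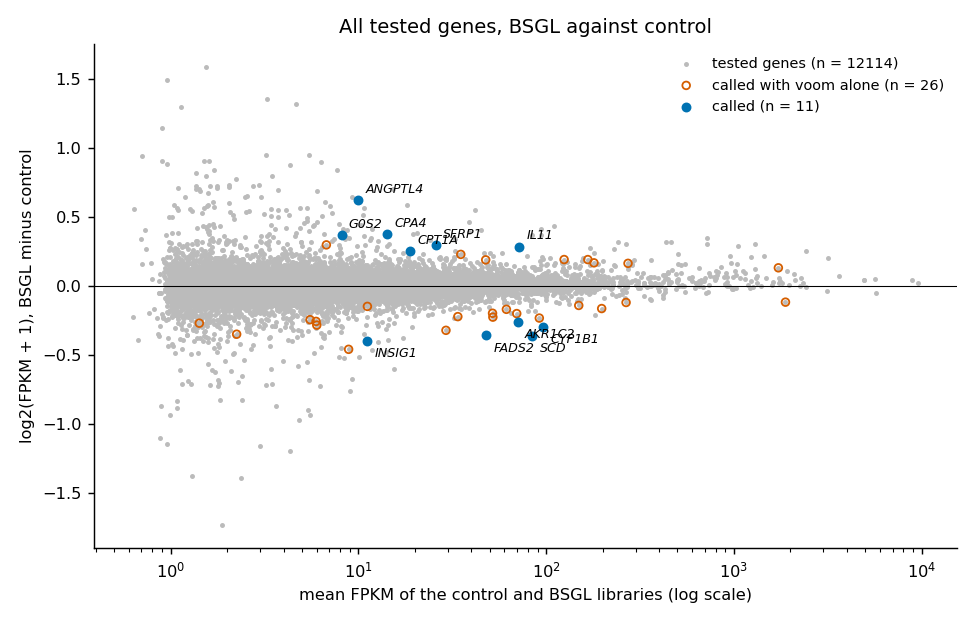
Each point is 1 of the 12114 genes, with its mean FPKM over the 6 libraries on a log scale on the x axis and the difference BSGL minus control in log2(FPKM + 1) on the y axis. The 11 called genes, in blue, are not those with the largest differences, which are genes of low FPKM with a wide scatter.

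The calls depended on the 6 compared libraries and on how the spread was estimated. Without control 1 limma called 2 genes (INSIG1 and the mitochondrial transfer RNA gene TRNY, named after its value was seen), without control 2 it called 0 (662 at an unadjusted p under 0.05), and without control 3 it called 1 (SFRP1). Without BSGL 1 it called 0 (676 unadjusted), without BSGL 2 it called 1 (ANGPTL4), without BSGL 3 it called 0 (779 unadjusted), while it called 7 without RSGL 1, 14 without RSGL 2 and 12 without RSGL 3, the last 2 counts each holding 10 of the 11. The RSGL libraries, which carry another genotype tag, enter the estimate of the spread: fitted to the 6 compared libraries alone, limma called 2 genes, of which SCD was among the 11. It called 0 with neither trend nor robust options (859 unadjusted), with each library scaled to a common sum (827) and with no filter (1560). The 11 log2 differences themselves moved little, and each kept its sign under all 23 other settings. For libraries left out the sign could not decide anything, because the control and BSGL values of the 11 genes did not overlap. The RSGL libraries do not enter these differences, so leaving them out left each unchanged. With control 3 left out, SCD stood at -0.35, INSIG1 at -0.39, ANGPTL4 at 0.58 and SFRP1 at 0.33, and with BSGL 1 left out at -0.34, -0.39, 0.66 and 0.30.

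**Figure D3:**
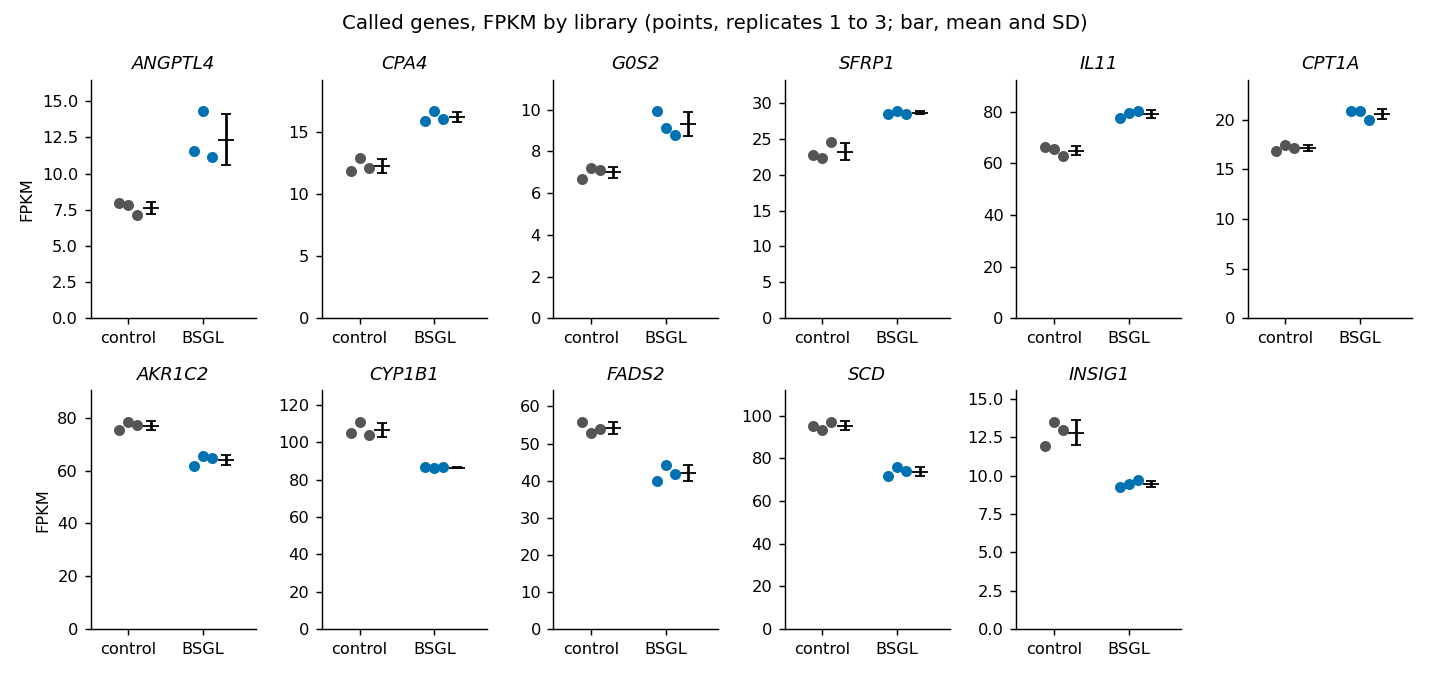
FPKM of the 11 called genes on the y axis, by group on the x axis; each point is 1 library, and the bar beside it is the mean and SD of 3 libraries. In every panel the control and BSGL points are separate, and ANGPTL4 has the widest spread for its mean, with BSGL 2 at 14.3 FPKM.

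Of the 5 genes that fell, 3 belong to lipid synthesis or its control. SCD makes monounsaturated fatty acids, FADS2 starts the desaturation of polyunsaturated ones, and INSIG1 retains the SREBP complex and is itself raised by it. SCD had 95.2, 93.1 and 97.2 FPKM in the 3 control libraries and 71.7, 75.7 and 73.8 with BSGL. The groups were well apart, and the log2 difference was -0.36 (95% interval -0.45 to -0.27; limma adjusted p = 0.02). FADS2 had 55.9, 52.8 and 53.9 FPKM in control and 39.95, 44.2 and 41.8 with BSGL, a log2 difference of -0.36 (-0.47 to -0.26). INSIG1, at a lower level, had 11.9, 13.5 and 12.97 FPKM in control and 9.27, 9.43 and 9.70 with BSGL, a difference of -0.40 (-0.50 to -0.30). The 3 genes thus ended 22.5 to 26.1% below control. In bulk RNA, fewer cells that make a transcript and less of it per cell cannot be told apart.

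SCD lies at chr10:100347015-100364831 on the plus strand, FADS2 at chr11:61816203-61867354 on the plus strand and INSIG1 at chr7:155297776-155310235 on the plus strand of GRCh38. Bases before these genes, and before ANGPTL4 (chr19:8364127-8374375, plus strand), are shown. They are the called genes of lipid synthesis or its control and the called gene with the largest rise. The bases are taken from the RefSeq promoter table (GRCh38.p14) and end where the deposited table starts the gene. Capitals mark those matches to the motifs searched that lie within these bases.
INSIG1: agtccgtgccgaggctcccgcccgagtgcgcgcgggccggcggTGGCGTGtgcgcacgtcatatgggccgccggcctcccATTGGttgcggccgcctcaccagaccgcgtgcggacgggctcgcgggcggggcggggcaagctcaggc
SCD: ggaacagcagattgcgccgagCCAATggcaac
FADS2: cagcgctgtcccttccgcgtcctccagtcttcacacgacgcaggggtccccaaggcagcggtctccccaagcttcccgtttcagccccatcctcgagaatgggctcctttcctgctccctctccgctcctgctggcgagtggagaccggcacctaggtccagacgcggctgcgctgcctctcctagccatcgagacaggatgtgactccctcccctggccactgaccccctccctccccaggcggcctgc
ANGPTL4: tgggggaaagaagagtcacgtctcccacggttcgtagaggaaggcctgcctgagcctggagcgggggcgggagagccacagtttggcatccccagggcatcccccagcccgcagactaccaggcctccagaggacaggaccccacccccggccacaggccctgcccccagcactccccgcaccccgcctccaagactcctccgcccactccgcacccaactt
The printed stretches are chr7:155297628-155297775, chr10:100346983-100347014, chr11:61815953-61816202 and chr19:8363905-8364126, all on the plus strand.

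Motifs were searched on both strands in windows from 250 bases before to 50 after the RefSeq start, which were found for 9 of the 11 called genes and for 9151 of the genes tested. A sterol regulatory element (TCACNCCAC) matched in 0 of the 9 and in 1.01% of tested genes. Both the E-box CACGTG (10.5% of tested genes) and the aryl hydrocarbon receptor element TNGCGTG (7.37%) matched in the INSIG1 window. These are separate places, 55 and 207 bases before the RefSeq start, and the E-box lies outside the printed stretch. The CCAAT box, CCAAT or its complement ATTGG, which binds a partner of SREBP, matched in 5 of the 9 (SCD, INSIG1, CPA4, AKR1C2 and IL11) and in 37.0% of tested genes. The RefSeq start used for AKR1C2 lies 14176 bases from the gene start of the deposited table, inside the gene as placed there. A further CCAAT box of SCD, 186 bases before the RefSeq start, lies outside the printed stretch. The PPAR direct repeat, a pair of AGGNCA copies with 1 base between them, matched in 0 of the 9 and in 0.164% of tested genes. The antioxidant element TGACNNNGC, the binding motif of NRF2, matched in CPA4 and G0S2 and in 15.6% of tested genes. A match is a description of letters, and the windows do not reach elements farther away.

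The other genes of fatty acid synthesis were not called. Of 21 members listed for synthesis and desaturation, 18 passed the filter. Of these, 2 were called lower (SCD and FADS2) and 0 higher, against 0.0413% and 0.0495% of all genes. The median log2 difference was -0.023 (-0.048 without control 3), against 0.0055 over all genes. SREBF1, which encodes the SREBP that drives fatty acid synthesis, had 33.5, 33.4 and 31.0 FPKM in control and 23.9, 26.1 and 27.8 with BSGL. Its difference of -0.32 (-0.44 to -0.21) lay within the range of the called genes, but the adjusted p was 0.0845 by limma and 0.000173 by limma-voom on fragments. FASN, the fatty acid synthase, had 46.5 and 41.2 FPKM on average in control and BSGL, with an interval of -0.32 to -0.016 and an adjusted p of 0.677. FADS1, which acts after FADS2 and lies beside it, averaged 68.5 and 63.1 FPKM without overlap (adjusted p = 0.339). ACLY, which supplies the acetyl units, averaged 189 and 186 FPKM, and ELOVL6, an elongase, 8.77 and 9.33. ACACA was among 22 listed genes that the table places on other sequences, and it was not analysed here.

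Among 29 genes of sterol synthesis and uptake, 27 passed, 1 was called lower (INSIG1) and 0 higher, against 0.0413% and 0.0495% of all genes. Lower means were more common than higher ones, 20 against 7, while 53.4% of all genes had a higher mean. The median was -0.067 (-0.043 without control 3 and -0.061 without BSGL 1). In 9 of the 27 the BSGL libraries lay wholly below the controls, against 5.67% of all genes, and in 1 (SC5D) wholly above, against 7.21%. IDI1, an isomerase of the pathway, averaged 12.9 and 11.3 FPKM, and NSDHL, a dehydrogenase of the later steps, 25.5 and 22.8. Neither passed the test. SQLE, the squalene epoxidase, averaged 22.04 and 21.5 FPKM with an interval of -0.12 to 0.05. SREBF2, the SREBP gene of the sterol branch, averaged 12.57 and 11.98 FPKM. The listed targets of the sterol receptor LXR had 7 of 11 members passing and 0 called (1 unadjusted; 0 by voom), with ABCA1, the cholesterol exporter, at 3.12 and 2.81 FPKM.

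On the side of PPAR targets and fatty acid oxidation, ANGPTL4 and CPT1A rose. ANGPTL4, a secreted inhibitor of lipoprotein lipase, had 7.96, 7.80 and 7.17 FPKM in control and 11.6, 14.3 and 11.1 with BSGL. Its log2 difference of 0.62 (0.44 to 0.80) was the largest of the called genes, and it was 0.52 when BSGL 2 was left out. CPT1A, which passes fatty acids into mitochondria, had 16.8, 17.4 and 17.2 FPKM in control and 20.9, 20.8 and 19.99 with BSGL, a difference of 0.25 (0.17 to 0.33; adjusted p = 0.0312). Of 29 listed genes 26 passed, 2 were called higher and 0 lower, against 0.0495% and 0.0413% of all genes. The median was 0.038 (0.038 without control 3), against 0.0055 over all genes. PDK4, a kinase that turns off pyruvate use, had 32.7, 33.6 and 30.7 FPKM in control and 37.1, 39.1 and 37.7 with BSGL. It was called by voom (adjusted p = 0.00816) and not by limma (0.141).

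The enzymes of oxidation itself were not called. ACADVL, which opens the oxidation of long chains, averaged 169.4 and 168.9 FPKM with an interval of -0.082 to 0.073, and HADHA 64.5 and 63.4 with one of -0.12 to 0.07. CPT2, the partner of CPT1A on the inner membrane, averaged 8.42 and 8.05 FPKM. ETFA, which accepts electrons from the dehydrogenases, averaged 121 and 136 FPKM without overlap, at an adjusted p of 0.202. The receptors were present at unlike levels, PPARG at 12.3 and 12.9 FPKM and PPARD at 2.52 and 2.44, and PPARA did not pass the filter.

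In lipid droplets G0S2, a small inhibitor of the triglyceride lipase PNPLA2, rose. It had 6.69, 7.20 and 7.10 FPKM in control and 9.95, 9.15 and 8.81 with BSGL, a difference of 0.36 (0.26 to 0.47). G0S2 is short and rested on 390 fragments over the 3 controls and 520 with BSGL, and voom did not call it (adjusted p = 0.188). It was the only one of the 11 that voom left out. PLIN2, the coat protein of droplets, had 15.8, 15.1 and 16.5 FPKM in control and 19.6, 18.8 and 18.04 with BSGL, and DGAT2, which makes triglycerides, 5.22, 4.86 and 4.43 against 5.74, 5.78 and 6.54. Both sets were without overlap, but the adjusted p was 0.153 and 0.329. PNPLA2 itself averaged 23.5 and 22.4 FPKM. Of 23 listed genes 17 passed, 1 was called higher and 0 lower, against 0.0495% and 0.0413% of all genes. The median was 0.027 (0.041 without control 3, 0.0074 without BSGL 1 and 0.0040 under the scaling that lowered it most).

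CYP1B1 and AKR1C2 were the other genes that fell. CYP1B1, a monooxygenase of steroids and aromatic compounds that the aryl hydrocarbon receptor raises, had 104.9, 111.1 and 103.9 FPKM in control and 86.5, 86.0 and 86.8 with BSGL. Its BSGL libraries were almost equal, and the difference was -0.30 (-0.38 to -0.22). AKR1C2, a reductase of steroids and ketones, had 75.5, 78.6 and 77.1 FPKM in control and 61.9, 65.6 and 64.7 with BSGL, a difference of -0.26 (-0.34 to -0.19). AKR1C2 is closely related in sequence to AKR1C1 and AKR1C3, so how its fragments were assigned is uncertain. AKR1C1 averaged 30.5 and 29.5 FPKM and AKR1C3 123 and 112, and neither passed the test.

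Of 33 genes of the NRF2 pathway 32 passed, 1 was called lower (AKR1C2) and 0 higher, against 0.0413% and 0.0495% of all genes. Voom called 4 of them lower and 0 higher: AKR1C2, GCLC, ALDH3A1 and OSGIN1. The means were lower in 30 and higher in 2 (TXN and FTH1), while 53.4% of all genes had a higher mean. In 14 of the 32 the BSGL libraries lay wholly below the controls, against 5.67% of all genes. The median was small, -0.075 against 0.0055 over all genes, and stayed at -0.078 without control 3 and -0.060 without BSGL 1. By library it was -0.016, 0.020 and -0.0053 in the controls and -0.087, -0.053 and -0.086 with BSGL. GCLC, the catalytic part of the enzyme that starts glutathione synthesis, had 73.1, 77.7 and 73.4 FPKM in control and 65.3, 65.3 and 63.6 with BSGL (limma adjusted p = 0.101). NQO1, the quinone reductase that is most used as a readout of NRF2, averaged 436 and 422 FPKM with overlap and an interval of -0.12 to 0.028. TXNRD1, which reduces thioredoxin, averaged 430 and 404 FPKM, HMOX1, which breaks down haem, 62.4 and 57.0, and SLC7A11, the cystine importer, 44.2 and 40.7. These 3 were without overlap and did not pass the test. NFE2L2, the gene of NRF2, averaged 19.6 and 19.0 FPKM, and KEAP1 34.1 and 33.1. The list holds 11 of the 12 KEAP1 markers whose sum was given above.

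Of 12 genes tied to the aryl hydrocarbon receptor 9 passed, 1 was called lower and 0 higher, against 0.0413% and 0.0495% of all genes. Their median was -0.046, against 0.0055 over all genes. TIPARP, a target that limits the receptor, had 9.34, 9.94 and 8.84 FPKM in control and 8.23, 8.33 and 8.47 with BSGL (adjusted p = 0.425). AHRR, the repressor of the receptor, averaged 2.07 and 2.10 FPKM and AHR itself 15.3 and 15.97. CYP1A1, the usual target, did not pass the filter. Among aldo-keto reductases and aldehyde dehydrogenases 17 of 19 passed and 1 was called lower, against 0.0413% of all genes, with 13 lower means and 4 higher. ALDH1A1, which oxidises retinal and is very abundant here, had 1920, 1961 and 2001 FPKM in control and 1796, 1812 and 1802 with BSGL, called by voom (adjusted p = 0.00317) and not by limma (0.291). AKR1B1, the aldose reductase, averaged 999 and 1054 FPKM (adjusted p = 0.805).

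Secreted proteins made up the rest of the genes that rose. IL11, a cytokine that signals through gp130, had 66.3, 65.5 and 63.0 FPKM in control and 77.5, 79.6 and 80.3 with BSGL, a difference of 0.28 (0.20 to 0.36). SFRP1, which binds and blocks Wnt ligands, had 22.7, 22.4 and 24.6 FPKM in control and 28.5, 28.9 and 28.5 with BSGL, a difference of 0.29 (0.21 to 0.38). CPA4, a secreted carboxypeptidase, had 11.8, 12.9 and 12.1 FPKM in control and 15.9, 16.7 and 16.04 with BSGL, a difference of 0.37 (0.27 to 0.48). In each of the 3 the gap between groups was wider than the range within either.

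Their families held no other call, where 0.0495% of all genes were called higher and 0.0413% lower. Of 27 cytokines and chemokines 19 passed, and IL11 was the only call. An unadjusted p under 0.05 was reached by 8 of the 19, IL11 among them, against 827 of the 12114 genes. The BSGL libraries lay wholly above the controls in 5 and wholly below in 2, against 7.21% and 5.67% of all genes. The log2 differences ran from -0.30 to 0.38. IL6, of the same receptor family as IL11, averaged 5.14 and 5.45 FPKM with overlap. LIF averaged 26.5 and 23.6 FPKM, lower without overlap at an adjusted p of 0.495. Of 8 genes of that family's receptors and signalling 8 passed and 0 were called (2 unadjusted; 0 by voom): the receptor chain IL11RA averaged 5.51 and 5.63 FPKM, IL6ST, the gene of gp130, 24.0 and 23.6, and SOCS3, a feedback target, 31.7 and 29.3. Of 35 Wnt pathway genes 23 passed and SFRP1 was the only call (5 unadjusted, SFRP1 included). In 4 of the 23 the BSGL libraries lay wholly above the controls and in 1 wholly below. AXIN2, the usual readout of Wnt signalling, averaged 3.60 and 3.42 FPKM with overlap, while DKK1, another secreted antagonist, had 105.7, 105.3 and 106.0 FPKM in control and 116.3, 117.2 and 121.1 with BSGL (adjusted p = 0.153). Of 17 carboxypeptidases and relatives 7 passed and CPA4 was the only call. LXN, the inhibitor of carboxypeptidases, averaged 7.90 and 7.78 FPKM.

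**Figure D4:**
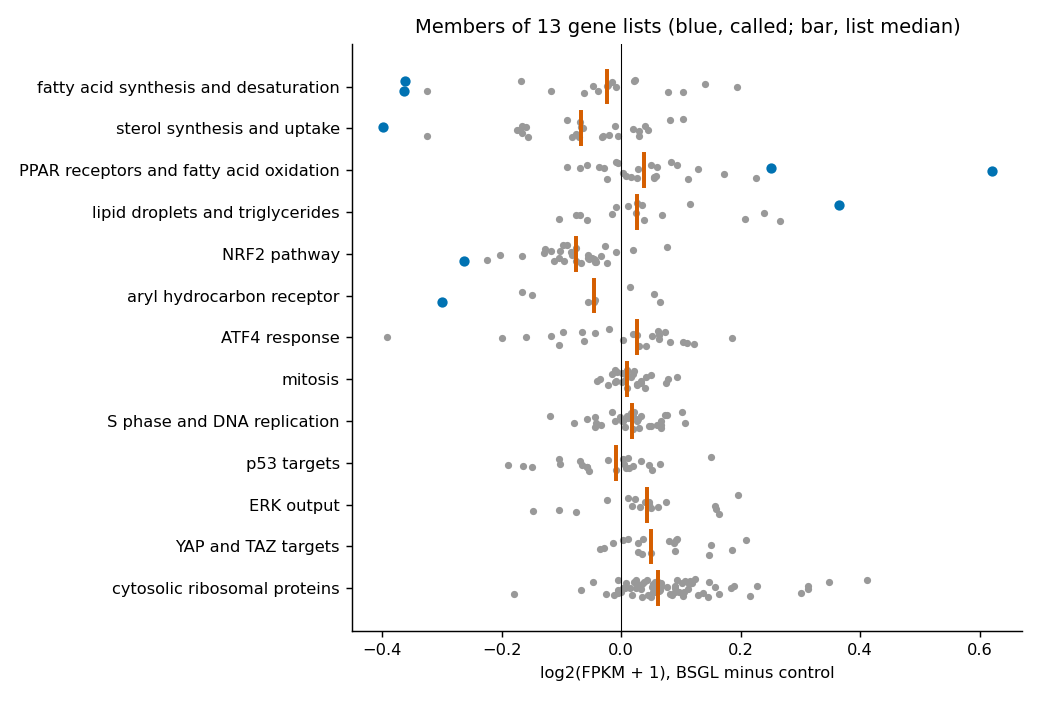
Each point is a member of 1 of 13 lists on the y axis, at its difference BSGL minus control in log2(FPKM + 1) on the x axis; blue points are called genes and the orange bar is the median of the list. NRF2 genes lie mostly left of 0 with a median of -0.075, ribosomal protein genes mostly right with one of 0.062, and cell cycle lists centre on 0.

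Limma-voom, run on the fragments recovered from the FPKM, called 36 genes (0.297%), 13 higher and 23 lower, of which 10 were among the 11. The 26 that it alone called were 8 higher and 18 lower, and their limma adjusted p ran from 0.0696 to 0.432. ID2, an inhibitor of basic helix-loop-helix factors, had 99.5, 97.4 and 101.9 FPKM in control and 82.6, 86.0 and 84.7 with BSGL, without overlap. ASNS, the asparagine synthetase and a target of ATF4, had 43.8, 45.4 and 44.4 FPKM against 51.3, 50.8 and 50.3. STC1, a secreted glycoprotein, had 6.38, 5.73 and 5.79 FPKM against 7.04, 7.66 and 7.94. The other higher genes were the actin-binding protein COTL1, ACTB, the integrin subunit ITGA3, the tetraspan protein TM4SF1, the chromatin protein HMGA1 and PDK4. ACTB, often used as a reference, had 1663, 1642 and 1640 FPKM in control and 1805, 1807 and 1794 with BSGL, a difference of 0.13 (0.053 to 0.20).

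Lower by voom alone were, beside SREBF1, GCLC, ALDH3A1, OSGIN1, ALDH1A1 and ID2, the vitamin D hydroxylase CYP24A1, the polyamine acetyltransferase SAT1, the matrix proteins SPP1 and TGFBI, the receptor FGFR3, the protocadherins PCDH7 and PCDH9, the cyclin CCND3, and SAMD11, HHIPL2, MXD4 and ATOH8. CYP24A1 had 55.9, 59.4 and 53.6 FPKM in control and 46.2, 48.4 and 48.8 with BSGL. FGFR3 had 2.43, 2.91 and 2.59 FPKM against 1.74, 1.85 and 1.96. SPP1, or osteopontin, had 63.4, 66.4 and 65.7 FPKM against 56.5, 58.2 and 58.4. SAMD11 had 10.8, 10.2 and 10.3 FPKM against 6.37, 7.80 and 7.80, the largest difference among them in log2(FPKM + 1) at -0.46. By percent change FGFR3 moved as far, at -29.99 against -29.79 for SAMD11. In all 26 the groups did not overlap, as in 12.9% of all genes, but the 26 were chosen by a test of these same libraries. The differences were modest, as for ALDH1A1 with a percent change of -8.03. When voom was fitted to the 6 compared libraries alone it called 66 genes, an alternative added after the data were seen.

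Lists of proliferation and stress genes held no call by limma, and ASNS was the only call in them by voom. Their counts at an unadjusted p under 0.05 stand beside 827 of the 12114 genes tested. Of 28 mitosis genes and 34 genes of S phase 28 and 34 passed and 0 were called, and 0 and 0 had an unadjusted p under 0.05. Their medians of 0.010 and 0.018 were 0.023 and 0.026 without control 3 and 0.014 and 0.011 without BSGL 1. Both turned below 0 with a common sum, and that of mitosis also with quantile scaling and with voom. MKI67, the proliferation marker, averaged 40.5 and 41.4 FPKM with an interval of -0.18 to 0.24, and CCNB1 137 and 139 with one of -0.054 to 0.097. Of 24 p53 targets 23 passed and 0 were called (3 unadjusted). CDKN1A, the cell cycle inhibitor p21, had 85.8, 82.2 and 93.0 FPKM in control and 78.1, 79.6 and 77.0 with BSGL (adjusted p = 0.419), and MDM2 averaged 14.4 and 13.9. The unfolded protein response had 18 of 20 members passing and 0 called (2 unadjusted), with its chaperone HSPA5 at 225 and 222 FPKM and an interval of -0.086 to 0.056. Heat shock genes had 16 of 19 passing and 0 called (0 unadjusted). Of 30 ATF4 genes 25 passed and 0 were called (8 unadjusted): DDIT3 averaged 14.02 and 12.02 FPKM with overlap, ATF4 itself 111 and 113, and NUPR1 4.94 and 3.55 without overlap (adjusted p = 0.344). ASNS, above, and NUPR1 marked the opposite ends of that list.

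The lists of ERK, YAP, immune checkpoint and interferon genes held 0 calls by limma and 0 by voom. Over all 12114 genes, 827 had an unadjusted p under 0.05 by limma. Of 21 genes of ERK output 18 passed (5 with an unadjusted p under 0.05), with DUSP6, the phosphatase that reads out ERK, at 2.88 and 2.51 FPKM and FOSL1 at 42.2 and 47.1. Of 21 YAP and TAZ targets 19 passed (4 unadjusted), and 16 means were higher against 3 lower, where 53.4% of all genes had a higher mean. The median of the list was 0.050 (0.062 without control 3 and 0.065 without BSGL 1). In 5 of the 19 the BSGL libraries lay wholly above the controls, against 7.21% of all genes, among them CYR61 (CCN1) at 46.1, 47.3 and 46.6 FPKM against 52.4, 53.4 and 50.01, and NT5E at 19.6, 20.7 and 20.6 against 23.6, 22.7 and 23.4. Neither passed limma (adjusted p = 0.284 and 0.246). Of 11 immune checkpoint ligands 6 passed the filter, and these 6 had a higher mean. Of the 5 below it, LGALS9 had 1.01, 1.02 and 0.86 FPKM in control and 0.801, 0.879 and 0.863 with BSGL. Of the 6, only CD274, the gene of PD-L1, was without overlap, at 1.011, 1.112 and 1.217 FPKM against 1.33, 1.34 and 1.84 (adjusted p = 0.602). Interferon response genes had 23 of 29 passing, 1 of them at an unadjusted p under 0.05.

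The ribosomal protein genes, high in control 3 and BSGL 1, are given with and without those libraries. Of 77 genes 72 passed, 63 had a higher mean with BSGL and 9 a lower one, and 0 were called by limma (0 unadjusted) or voom. Their median of 0.062 became 0.13 without control 3 and 0.042 without BSGL 1. RPL23A, at the upper end of the list by its t value, had 1073, 1061 and 1173 FPKM in control and 1211, 1138 and 1177 with BSGL, so that control 3 lay inside the BSGL range. The nuclear genes of the respiratory chain, with 43 of 46 passing, and the 13 genes of the mitochondrial genome had 0 calls (1 and 0 unadjusted) and medians of 0.031 and 0.042. Without control 3 these were 0.051 and 0.051, and under the scaling that lowered them most 0.0031 and 0.0. The mitochondrial share of fragments was 5.45 to 5.66% in the controls and 5.51 to 5.87% with BSGL.

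The largest differences by size belonged to small RNA genes with few fragments. Among genes with at least 5 FPKM in the higher group, MIR3192 at 1.36, MIR6784 at 1.32 and SNORD143 at 0.94 had the 3 largest log2 differences, and TRC-GCA22-1 at -1.20, SNORD20 at -0.97 and SNORA5C at -0.94 the 3 smallest, on 6 to 58 fragments over the 3 controls. None was called, at adjusted p of 0.246 to 0.843. In all 13 genes differed by 2-fold or more on this scale, of which 12 had an unadjusted p under 0.05 and 0 were called by limma or voom. Of 705 lncRNA genes 0 were called by limma (69 unadjusted) or voom, with a smallest adjusted p of 0.0845. Of 186 small nucleolar RNA genes 0 were called (11 unadjusted), with a smallest of 0.0952.

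At the same dose and time, RSGL gave other levels of the 11 genes than BSGL. The contrast of the 2 compounds, adjusted over all genes, passed for 11 of the 11 and for 55.3% of all genes tested. It uses the BSGL libraries by which the 11 had been chosen, both compounds share the control libraries, and the RSGL libraries carry another genotype tag, so that the compound and the tag cannot be told apart. ANGPTL4 averaged 7.64 FPKM in control, 12.3 with BSGL and 85.4 with RSGL, and BSGL stood 2.70 log2 units below RSGL (difference -2.70, SE 0.0789). IL11 averaged 64.9, 79.1 and 142.5 FPKM, G0S2 6.995, 9.302 and 21.5, SFRP1 23.2, 28.6 and 34.6, CPA4 12.3, 16.2 and 18.3, and CPT1A 17.1, 20.6 and 22.96. For these 6 the RSGL level was above the BSGL level, least so for CPT1A (difference -0.15, SE 0.035, adjusted p = 0.00393).

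For genes that fell with BSGL the order of the 3 levels was mixed. INSIG1 averaged 12.8 FPKM in control, 9.46 with BSGL and 33.5 with RSGL, and CYP1B1 107, 86.4 and 173, so that control lay between the compounds. SCD averaged 95.2, 73.8 and 87.3 FPKM, with RSGL between control and BSGL (BSGL minus RSGL -0.24, SE 0.041, adjusted p = 0.000629). FADS2 averaged 54.2, 42.0 and 28.2 FPKM and AKR1C2 77.1, 64.0 and 26.1, with RSGL below BSGL. These are levels of 1 dose and 1 time for each compound.

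**Figure D5:**
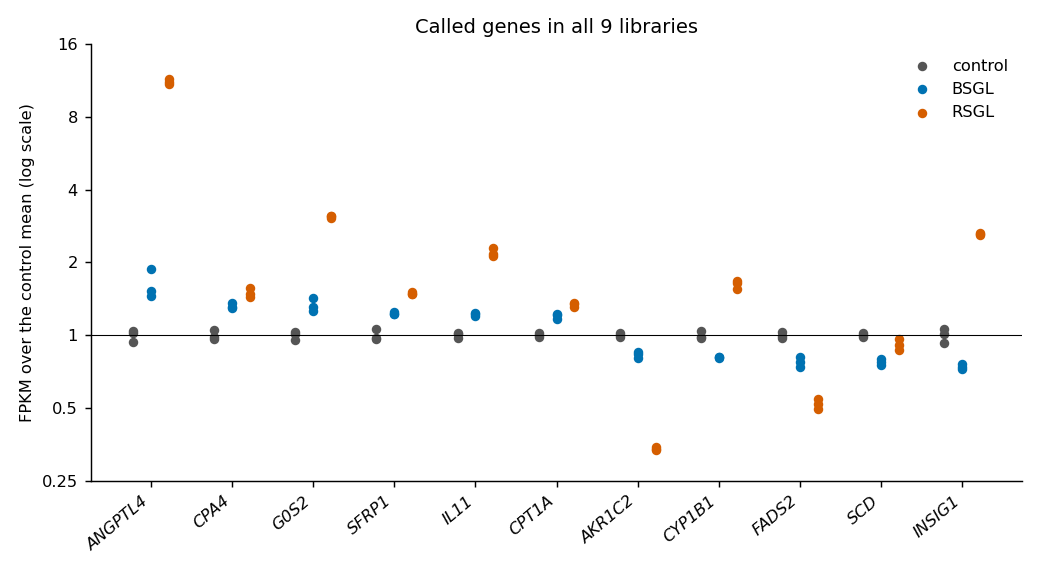
FPKM of each called gene on the x axis in each of the 9 libraries, divided by the control mean, on a log scale on the y axis; each point is 1 library. For ANGPTL4 the BSGL points lie at 1.46 to 1.88 and the RSGL points at 10.9 to 11.4; for the other 10 genes the BSGL points lie at 0.723 to 1.42, and INSIG1 and CYP1B1 are below 1 with BSGL and above 1 with RSGL.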

How the data were processed

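RNA was extracted with TRIzol and sequenced from NEBNext Ultra libraries, per the labels' protocols. The deposited values are FPKM, which the authors computed per the file headers; the table also gives each gene's NCBI ID, length and place on GRCh38 sequences. The submitters' processing notes name featureCounts 1.5.0-p3, HISAT2 2.0.5 and DESeq2 1.16.1 with no role. No source used here gives the strand setting, and overlapping genes on opposite strands and near-identical copies are therefore uncertain. FPKM times gene length gave whole multiples of 1 step for 100% of values under 300 fragments in each library (within 0.01), from which fragments were recovered. Library totals of 16720414 to 18738947 fragments set the precision.

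Genes with FPKM of at least 1 in at least 3 of the 6 compared libraries were kept, and another 229 on sequences outside the chromosomes were left out. Values were analysed as log2(FPKM + 1), which understates changes of low genes. With limma 3.58.1 (R 4.3.3, statmod 1.5.0, trend and robust options) a model of the 3 group means was fitted across the 9 libraries, with the contrasts BSGL minus control and BSGL minus RSGL and Benjamini-Hochberg adjustment over all genes. Intervals are 95% intervals. The alternatives changed the pseudocount, filter, scaling, genes tested, model options, blocking and libraries, and ran limma-voom on the fragments. Count models were not run on FPKM. The fit was tested on simulated data.

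The text names called genes, genes called by voom alone, key members and ends of each of 38 lists, and the 3 largest and 3 smallest differences at 5 FPKM or more. Outside this rule, cell type markers are named, and IDI1, NSDHL, CPT2, ETFA, ACADVL, HADHA, ELOVL6, LXN, SLC7A11, FTH1, LGALS9, SNORA9 and TRNY were chosen after their values were seen. Members and lists, written from general knowledge, were chosen with earlier results of these data known. Of 866 distinct listed genes 715 passed, 129 were too low and 22 lay on other sequences. Promoter sequences are from the RefSeq table. Some listed genes are not reported here by name.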

Additional observations from a re-analysis of the deposited data

How the results depend on the processing

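Limma called 11 genes, and the same 11 at a pseudocount of 0.1 or 0.5 and with median ratio scaling; quantile scaling called 12. A filter of 5 FPKM called 17 and protein-coding genes alone 20, both with fewer genes tested and all 11 among them. Limma called 0 genes with no filter (1560 at an unadjusted p under 0.05), with each library scaled to a common sum (827), and with neither trend nor robust options (859). The fit with the replicate block called 0 (783 unadjusted). Same-numbered control and BSGL libraries had correlations of -0.0486, 0.049 and -0.127 in their deviations, against 0.175 for control 3 and BSGL 1. With 3 libraries per group, these values cannot decide whether libraries of the same number were handled as pairs. With the 6 compared libraries alone limma called 2, SCD and the small nucleolar RNA gene SNORA9. Voom called 36, and 10 of these were among the 11. With 1 library left out, 0 to 14 genes were called. Added after the data were seen, a common sum over the same genes with a matched pseudocount called 3 (SCD, FADS2 and INSIG1) and voom on the 6 libraries 66. The cause of these differences was not tested. The 37 genes called by limma or voom kept their sign in each alternative that gave them a value. Their control and BSGL values did not overlap, so a library left out could not change the sign. Of 874 list medians under other settings, 769 stayed within the spread between libraries and 105 moved by more, 37 of them with a replicate left out. The medians of 16 lists changed sign or became 0 under at least 1 setting. Under the median ratio, quantile and common sum scalings the NRF2 median ranged from -0.10 to -0.080, the sterol median from -0.099 to -0.071 and that of all genes from -0.021 to 0.0016. Fragments limit small RNA genes most.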
